A study of Mus musculus with 12 samples.

Results

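The distal end of mouse chromosome 7 holds an imprinted domain, a stretch of genes of which the maternal and the paternal copy are used unequally. The 8 genes H19, Igf2, Ascl2, Kcnq1, Kcnq1ot1, Cdkn1c, Slc22a18 and Phlda2 of this domain were picked by symbol out of a table of 23412 genes, with earlier results of these data known. They were followed in v6.5 mESCs, a line of male mouse embryonic stem cells grown in serum and LIF on gelatin. Transcripts were counted by bulk RNA-Seq in 4 genotypes with 3 libraries each, and library totals lay between 17337908 and 31448468 counts. Both copies of Hmgn1 lack 1 base in Hmgn1-/- cells, and both copies of Hmgn2 have 1 base added in Hmgn2-/- cells. The double knockout, Hmgn1-/-Hmgn2-/-, was derived by editing Hmgn1 in the Hmgn2-/- line, and WT cells carry neither edit. The edited genes encode HMGN1 and HMGN2, proteins that bind nucleosomes. Each knockout genotype is a line grown from 1 edited cell, so that genotype and clone cannot be told apart.

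Imprinting keeps a gene silent on the copy from 1 parent through DNA methylation that is laid down in the germ line. At H19 and Igf2, the unmethylated control region of the maternal copy binds the insulator protein CTCF, and the enhancers that both genes share then act on H19, whereas on the methylated paternal copy they act on Igf2. In the neighbouring Kcnq1 cluster, the paternal copy makes the long noncoding RNA Kcnq1ot1, which silences genes around it in cis, so that Ascl2, Cdkn1c, Phlda2, Kcnq1 and Slc22a18 are used mainly from the maternal copy. The counts do not separate the parental copies, and imprinting as such was not measured.

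The edited genes were examined first, as a check of the labels. Levels are given as TMM-scaled CPM, in which counts are divided by the library total, adjusted with the TMM factor that edgeR estimates, and carry no correction for gene length unless stated. Hmgn1 was at 661, 594 and 612 in WT replicates 1, 2 and 3, at 138, 139 and 142 in Hmgn1-/-, at 546, 556 and 640 in Hmgn2-/- and at 21.6, 19.9 and 21.5 in Hmgn1-/-Hmgn2-/-. Every library labelled as edited in Hmgn1 was below every library that was not. Hmgn2 was at 137, 121 and 119 in WT, at 106, 113 and 109 in Hmgn1-/-, at 50.9, 54.5 and 53.7 in Hmgn2-/- and at 53.9, 50.5 and 54.5 in Hmgn1-/-Hmgn2-/-. The libraries labelled as edited in Hmgn2 were likewise the lowest for that gene, and no library went against its label.

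In the GENCODE vM21 annotation of GRCm38, the build also called mm10, the 8 genes span 928 kb of chromosome 7. H19 and Igf2 lie 72.6 kb apart, Ascl2 follows Igf2 at 300.01 kb, and Kcnq1 starts 137 kb beyond Ascl2. Kcnq1ot1 lies wholly inside Kcnq1 on the other strand, where it covers 121 exon bases of that gene. It is not stated whether counting used the strand. Without strand, reads of either gene within the span of Kcnq1ot1 cannot be told apart. The shared exon bases are 0.130% of those of Kcnq1ot1 and 2.96% of those of Kcnq1. Of the 8 genes, 7 passed edgeR's filter on low counts in each comparison with WT, and Kcnq1 did not.

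Levels of different genes were compared per kb of annotated exon. On this scale the WT order was Phlda2 at 90.7 ± 0.668 (SD, n = 3), Cdkn1c at 46.5 ± 5.67, Igf2 at 12.6 ± 2.57, Ascl2 at 7.83 ± 0.611, Slc22a18 at 3.03 ± 0.697, H19 at 1.85 ± 0.266, Kcnq1ot1 at 0.0413 ± 0.0151 and Kcnq1 at 0.0247 ± 0.0167 TMM-scaled CPM per kb. The libraries of neighbours in this order overlapped only for Kcnq1ot1 and Kcnq1. Kcnq1ot1 is annotated as 93092 exon bases, and its level per kb rests on that length. In Hmgn1-/- cells Phlda2 (120.2) and Cdkn1c (30.8) again led, and Slc22a18 (3.27) stood above Ascl2 (1.85) and Igf2 (1.85), whose libraries overlapped, and above H19 (0.189). In Hmgn2-/- cells the order after Phlda2 (117) and Cdkn1c (39.2) was Igf2 (3.18), Slc22a18 (2.75) and Ascl2 (2.51), with overlap between neighbours among these 3, and H19 (0.0471) overlapped with Kcnq1ot1 (0.0685). In Hmgn1-/-Hmgn2-/- cells Phlda2 (110.3) and Cdkn1c (41.0) led as well, Slc22a18 (3.01), Ascl2 (2.47) and Igf2 (2.45) overlapped with their neighbours in the order, and so did Kcnq1ot1 (0.0587), H19 (0.0424) and Kcnq1 (0.0364). H19 thus went from well above Kcnq1ot1 in WT to a range that overlapped with that of Kcnq1ot1 in both lines that lack HMGN2.

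H19 makes a maternally expressed noncoding RNA with no known protein product and lies at chr7:142575529-142578143 on the minus strand. Its transcript is the host of a microRNA, and the mature sequences (RefSeq, GRCm38.p6) are shown with the seed, bases 2 to 8, in capitals because they are made from a transcript that fell in every knockout. They lie at chr7:142577112-142577133 (5p) and chr7:142577078-142577099 (3p), minus strand, and do not share a seed.
miR-675-5p: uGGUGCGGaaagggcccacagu
miR-675-3p: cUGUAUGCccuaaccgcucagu
Mature microRNAs are not captured by poly-A selection. The entry for the hairpin, Mir675, which was looked up after its values were seen, had 0 counts in all 12 libraries. Mir675 shares 84 exon bases with H19 on the same strand. How reads in shared bases were counted is not given, so these counts say nothing of the hairpin.

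H19 counts were 130, 77 and 153 in WT replicates 1, 2 and 3, 8, 15 and 8 in Hmgn1-/-, 2, 4 and 2 in Hmgn2-/-, and 1, 2 and 5 in Hmgn1-/-Hmgn2-/-. After scaling these were 4.06, 4.31 and 5.30 TMM-scaled CPM in WT, 0.307, 0.717 and 0.368 in Hmgn1-/-, 0.0770, 0.151 and 0.119 in Hmgn2-/-, and 0.0320, 0.0903 and 0.191 in Hmgn1-/-Hmgn2-/-. WT libraries were all above the knockouts, Hmgn1-/- libraries were all above those of the lines without HMGN2, and the latter overlapped. H19 fell in Hmgn1-/- cells with a log2 FC of −3.32 (SE 0.291, edgeR adjusted p = 2.17e-06). The fall was −5.24 in Hmgn2-/- cells (SE 0.326, edgeR adjusted p = 3.59e-06). In Hmgn1-/-Hmgn2-/- cells the log2 FC was −5.44 (SE 0.366, edgeR adjusted p = 1.48e-07). These folds of the lines without HMGN2 rest on 8 counts each, and their size is known only roughly. The last value leaned on replicate 3 of the double knockout, which held 5 of its 8 H19 counts, and was −6.22 without it. In bulk RNA, fewer cells of a type and less RNA per cell cannot be told apart, here and in the results that follow.

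With so few counts, H19 was also compared as a ratio of summed counts over summed scaled library sizes, with an exact 95% interval that covers counting error only. The 31 counts of Hmgn1-/- came to 9.87% of the WT level (6.61% to 14.3%), the 8 of Hmgn2-/- to 2.53% (1.08% to 5.04%) and the 8 of Hmgn1-/-Hmgn2-/- to 2.20% (0.943% to 4.38%). Between the knockouts, H19 did not pass the filter on low counts and was not tested in the edgeR fits of 6 libraries. By the ratio, Hmgn2-/- stood at 25.6% of Hmgn1-/- (10.2% to 57.0%) and Hmgn1-/-Hmgn2-/- at 22.3% of Hmgn1-/- (8.85% to 49.6%). A two-sided exact permutation test gave p = 0.1 for each of these, the smallest that 3 libraries against 3 can give. The double knockout against Hmgn2-/- came to 87.0% (28.5% to 265.87%), with p = 0.9 in the same exact permutation test, so that a difference between these lines was not detectable at this depth. In a fit of all 12 libraries, where H19 passed the filter, the log2 FC was −1.93 for Hmgn2-/- against Hmgn1-/- (SE 0.549, edgeR adjusted p = 0.389) and −2.12 for Hmgn1-/-Hmgn2-/- against Hmgn1-/- (SE 0.544, edgeR adjusted p = 0.0833), neither past the threshold. With no filter on low counts the edgeR adjusted p were 0.898 and 0.127 in the same order. The DESeq2 adjusted p were 0.999998 and 0.339.

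**Figure D1:**
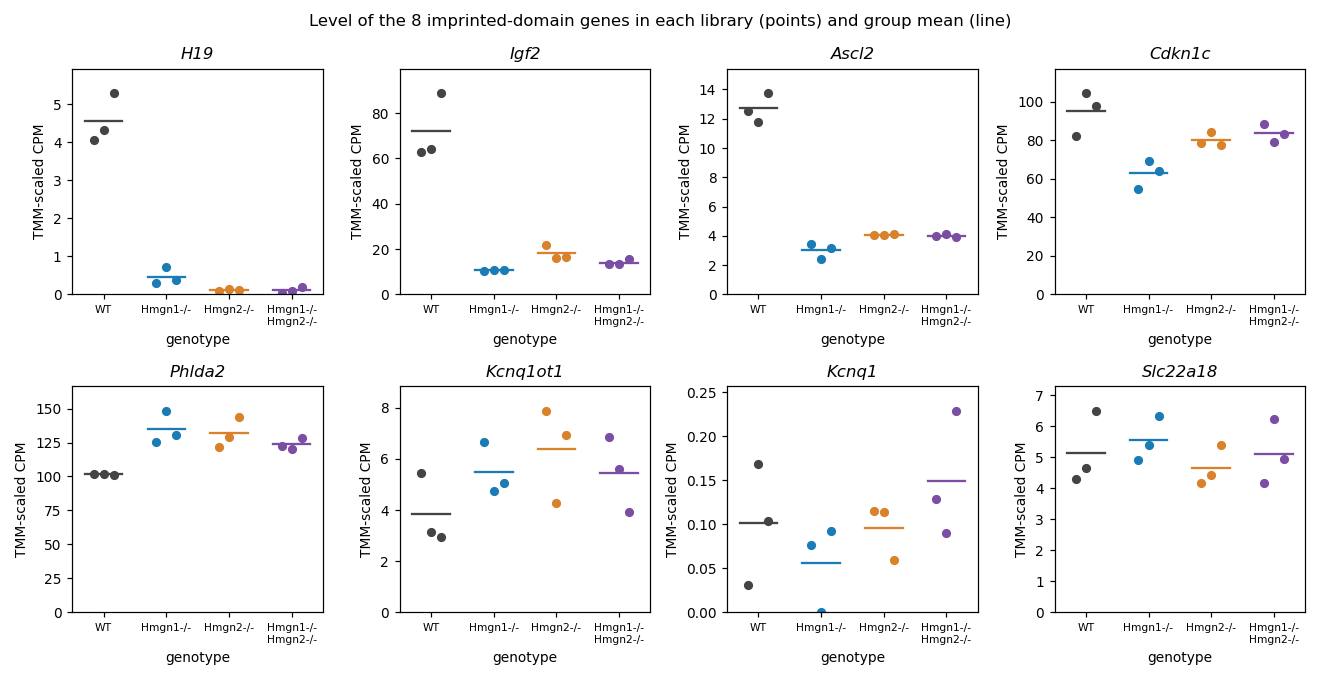
TMM-scaled CPM of the 8 genes in each of the 12 libraries (points, replicates 1 to 3 from left to right) with the mean of each genotype (line); each panel has its own linear axis from 0. H19, Igf2 and Ascl2 sit highest in the 3 WT libraries, and Phlda2 sits lowest there.

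Igf2, the paternally expressed growth factor of the domain, lies at chr7:142650766-142666816 on the minus strand. The RefSeq table (GRCm38.p6) gives 4 start windows for it. The 250 bases before the start shown here lie at chr7:142657497-142657746, minus strand, and hold no annotated exon base. They were chosen after the matches were seen, for their GC boxes, and which start is used in these cells was not measured. Of the other windows of Igf2, 1 likewise holds no exon base and has 1 CG and no GC box, and the others, which hold exon bases, have 10 CG with no GC box and 22 CG with 1. Those of Ascl2 at chr7:142969265-142969514, minus strand, are set beside them, since both genes fell in each knockout. Both are written 5′ to 3′ with CG in capitals.
Igf2 promoter window: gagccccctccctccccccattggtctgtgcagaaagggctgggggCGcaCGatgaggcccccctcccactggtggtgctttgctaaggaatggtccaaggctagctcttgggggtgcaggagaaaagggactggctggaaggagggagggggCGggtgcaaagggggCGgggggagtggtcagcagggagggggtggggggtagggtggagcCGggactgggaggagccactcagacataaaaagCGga
Ascl2 promoter window: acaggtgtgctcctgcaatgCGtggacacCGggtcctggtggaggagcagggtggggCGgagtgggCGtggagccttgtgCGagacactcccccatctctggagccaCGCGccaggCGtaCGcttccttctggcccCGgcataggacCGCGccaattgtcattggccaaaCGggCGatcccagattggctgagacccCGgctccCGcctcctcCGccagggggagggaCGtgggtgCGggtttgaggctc
The Igf2 window has 6 CG, the median over all 32851 windows of 250 bases, and the Ascl2 window has 19, more than 80.3% of windows. The letters GGGCGG, known as a GC box and present in 32.7% of all windows, were found on either strand 2 times for Igf2, at 100 and 85 bases before the start, and 1 time for Ascl2, 196 bases before it. The CG within each GC box is counted among the CG. Neither window holds TATAAA (12.4% of windows) or a match to the CTCF core motif (0.103%), both strands searched. These matches are a description of letters and say nothing of binding.

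The Igf2 transcript is itself the host of a microRNA, whose mature forms lie at chr7:142654968-142654989 (5p) and chr7:142654932-142654952 (3p), minus strand, and are given for the same reason as those of H19 and in the same notation.
miR-483-5p: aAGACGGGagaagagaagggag
miR-483-3p: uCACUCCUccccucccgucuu
None of the 4 mature sequences shares a seed with another. Mir483, looked up after its values were seen, had 1 count in replicate 1 of WT and 1 in replicate 1 of Hmgn1-/- and 0 elsewhere.

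Igf2 was at 62.8, 64.4 and 89.0 TMM-scaled CPM in WT, at 10.4, 10.6 and 10.8 in Hmgn1-/-, at 21.8, 16.2 and 16.6 in Hmgn2-/- and at 13.2, 13.2 and 15.5 in Hmgn1-/-Hmgn2-/-. No group overlapped with another. WT replicate 3 stood above the other WT libraries, and the Hmgn1-/- libraries lay closest together. Relative to the WT mean of 72.0 ± 14.7 (SD, n = 3), Hmgn1-/- cells kept 14.7%, Hmgn2-/- cells 25.3% and Hmgn1-/-Hmgn2-/- cells 19.4%. The log2 FC of Igf2 was −2.77 in Hmgn1-/- (SE 0.126, edgeR adjusted p = 6.61e-09). It was −1.98 in Hmgn2-/- (SE 0.156, edgeR adjusted p = 1.63e-05). The double knockout gave −2.37 (SE 0.127, edgeR adjusted p = 1.77e-08). The growth factor transcript therefore fell in all 3 knockouts. Of the exon bases of Igf2, 62.8% are also annotated to Gm49394 on the same strand. That gene is not listed under this name among the genes counted, and the Igf2 counts could hold its reads.

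The antisense gene Igf2as, chosen after its values were seen, had 56, 37 and 106 counts in WT, 10, 24 and 22 in Hmgn1-/-, 27, 32 and 7 in Hmgn2-/- and 47, 37 and 38 in Hmgn1-/-Hmgn2-/-. Its log2 FC was −1.60 in Hmgn1-/- (SE 0.379, edgeR adjusted p = 0.00587), where it was past the threshold. It was −1.43 in Hmgn2-/- (SE 0.378, edgeR adjusted p = 0.0220) and −0.71 in Hmgn1-/-Hmgn2-/- (SE 0.283, edgeR adjusted p = 0.0758). Without strand in the counting, its reads and those of Igf2 cannot be told apart where they overlap. The annotated gene opposite exons of Igf2 is named Igf2os and covers 98 of the 5723 exon bases of Igf2 (1.71%). Whether it is the gene counted as Igf2as is not given.

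Ascl2, a basic helix-loop-helix factor needed for the trophoblast of the placenta, lies at chr7:142966829-142969264 on the minus strand and belongs to the maternally expressed genes. It was at 12.6, 11.8 and 13.8 TMM-scaled CPM in WT, at 3.42, 2.44 and 3.17 in Hmgn1-/-, at 4.08, 4.05 and 4.10 in Hmgn2-/- and at 4.005, 4.11 and 3.93 in Hmgn1-/-Hmgn2-/-. WT stood apart from every knockout library, Hmgn1-/- lay below the lines without HMGN2, and those 2 lines overlapped. The log2 FC was −2.08 in Hmgn1-/- (SE 0.149, edgeR adjusted p = 3.39e-07). It was −1.64 in Hmgn2-/- (SE 0.133, edgeR adjusted p = 1.81e-05). The double knockout gave −1.67 (SE 0.124, edgeR adjusted p = 4.22e-07). Ascl2 thus kept 23.7%, 32.1% and 31.6% of its WT mean of 12.7 ± 0.992 (SD, n = 3).

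Cdkn1c, an inhibitor of cyclin-dependent kinases, lies at chr7:143458339-143461050 on the minus strand. It was at 82.1, 104.6 and 97.9 TMM-scaled CPM in WT, at 54.9, 69.4 and 64.1 in Hmgn1-/-, at 78.5, 84.0 and 77.3 in Hmgn2-/- and at 88.5, 79.1 and 83.3 in Hmgn1-/-Hmgn2-/-. Only Hmgn1-/- stood apart from WT. Its log2 FC there was −0.60 (SE 0.0964, edgeR adjusted p = 3.73e-04), within the fold limit of 2. In Hmgn2-/- the value was −0.24 (SE 0.0978, edgeR adjusted p = 0.113) and in Hmgn1-/-Hmgn2-/- −0.18 (SE 0.0826, edgeR adjusted p = 0.116). With 1 library left out in turn these ran from −0.35 to −0.17 and from −0.28 to −0.11. Part of its exons, 30.7% of the bases, lies opposite the antisense gene Gm44732, which is not listed under this name among the genes counted.

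Phlda2, a pleckstrin homology protein that restrains growth of the placenta, lies at chr7:143501545-143503150 on the minus strand. It was at 102.1, 102.0 and 100.8 TMM-scaled CPM in WT, at 125, 148 and 131 in Hmgn1-/-, at 122, 129 and 144 in Hmgn2-/- and at 123, 120.0 and 128 in Hmgn1-/-Hmgn2-/-. Every knockout library was above every WT library. The log2 FC was 0.40 in Hmgn1-/- (SE 0.0667, edgeR adjusted p = 4.82e-04). It was 0.37 in Hmgn2-/- (SE 0.0824, edgeR adjusted p = 0.00884). In Hmgn1-/-Hmgn2-/- it was 0.28 (SE 0.0549, edgeR adjusted p = 0.00177). These adjusted p were under 0.01 with folds well within the limit, so Phlda2 was not past the threshold in any comparison.

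The silencing RNA Kcnq1ot1 lies at chr7:143203458-143296549 on the minus strand. It was at 5.47, 3.13 and 2.94 TMM-scaled CPM in WT, at 6.65, 4.73 and 5.05 in Hmgn1-/-, at 7.89, 4.28 and 6.96 in Hmgn2-/- and at 6.86, 5.60 and 3.93 in Hmgn1-/-Hmgn2-/-. WT replicate 1 was within the range of each knockout, and all groups overlapped, although each knockout library was above the WT library of the same replicate number. The log2 FC was 0.49 (SE 0.230, edgeR adjusted p = 0.135), 0.70 (SE 0.278, edgeR adjusted p = 0.109) and 0.48 (SE 0.247, edgeR adjusted p = 0.171) in Hmgn1-/-, Hmgn2-/- and Hmgn1-/-Hmgn2-/-, none past the threshold. With the replicate number as a block the values were 0.52 (edgeR adjusted p = 0.0174), 0.74 (edgeR adjusted p = 0.0305) and 0.49 (edgeR adjusted p = 0.0274), under 0.05 and within the fold limit. It also moved with single libraries: without WT replicate 1 the log2 FC was 0.85, 1.06 and 0.85, and without WT replicate 3 it was 0.31, 0.52 and 0.29. Over all settings of edgeR and DESeq2 the adjusted p lay between 0.00192 and 0.426, between 0.0243 and 0.338 and between 0.00521 and 0.524 in the same order, and Kcnq1ot1 was past the threshold in none of them.

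Slc22a18, a transporter of the solute carrier family at chr7:143473736-143499334 on the plus strand, ranged from 4.31 to 6.51 TMM-scaled CPM in WT, from 4.92 to 6.34 in Hmgn1-/-, from 4.16 to 5.41 in Hmgn2-/- and from 4.17 to 6.23 in Hmgn1-/-Hmgn2-/-. Its log2 FC was 0.094 (SE 0.181, edgeR adjusted p = 0.746), −0.16 (SE 0.198, edgeR adjusted p = 0.657) and −0.032 (SE 0.194, edgeR adjusted p = 0.927) in the same order, differences smaller than the spread between replicates. Their sign turned when single libraries were left out. Kcnq1, a potassium channel subunit at chr7:143106362-143427042 on the plus strand, had 1, 3 and 3 counts in WT, 2, 0 and 2 in Hmgn1-/-, 3, 3 and 1 in Hmgn2-/- and 4, 2 and 6 in Hmgn1-/-Hmgn2-/-. It was at or near the floor of 3 counts throughout, no fold is given, and it was not tested.

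**Figure D2:**
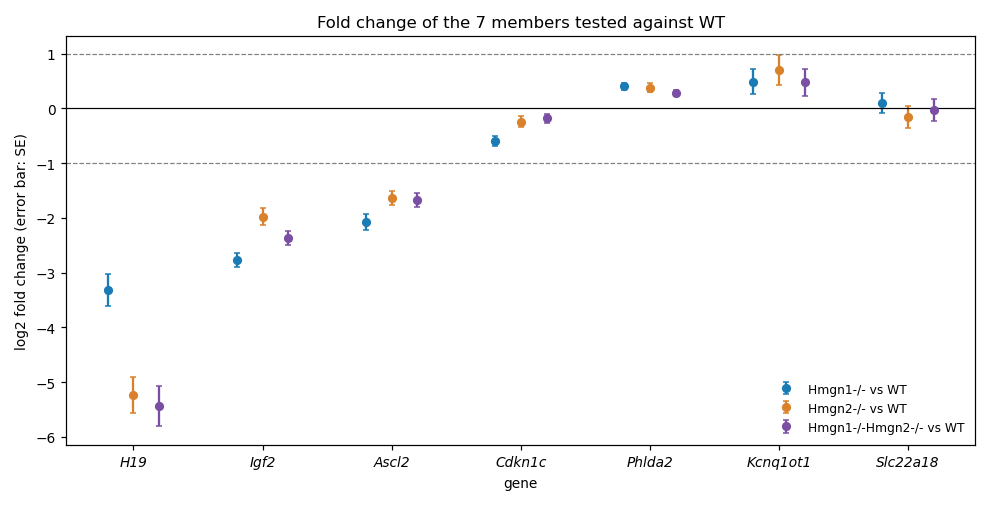
Log2 FC against WT for the 7 genes tested (points, error bars SE) in Hmgn1-/-, Hmgn2-/- and Hmgn1-/-Hmgn2-/-; dashed lines mark the limit of 1 in size on the log2 scale. H19, Igf2 and Ascl2 lie below −1 in all 3 comparisons, which share the WT libraries, and the other 4 genes lie between the lines.

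Each comparison with WT asked which of the genes differed in level between an edited line and WT. Each edited line is 1 clone, so a difference cannot be assigned to the protein or proteins lost. A gene was past the threshold at an edgeR adjusted p under 0.01 and a log2 FC of at least 1 in size. The 8 genes, like the lists below, were chosen with earlier results of these data known. Shares of all genes are therefore set beside their counts as a description and not as a test. In Hmgn1-/- cells 3 of the 7 genes tested were lower (H19, Igf2 and Ascl2), where 5.08% of all 13917 genes tested were lower, and 0 were higher, where 0.898% of all genes were. By DESeq2 0 were higher as well, and 5 of the 7 had an unadjusted p under 0.05 in edgeR in either direction, as did 38.7% of all genes. In Hmgn2-/- cells the same 3 genes were lower against 4.38% of all genes, and 0 were higher against 0.776% (0 by DESeq2, 6 of 7 at an unadjusted p under 0.05 in either direction, beside 31.0% of all genes). In Hmgn1-/-Hmgn2-/- cells they were again the 3 lower ones against 5% of all genes, with 0 higher against 1.3% (0 by DESeq2, 5 of 7 at an unadjusted p under 0.05 in either direction, beside 38.9% of all genes). With an adjusted p under 0.05 and no fold limit, 5, 4 and 4 genes were called in Hmgn1-/-, Hmgn2-/- and Hmgn1-/-Hmgn2-/-, beside 28.4%, 18.9% and 29% of all genes. The fourth gene was Phlda2 in each, and Cdkn1c was the fifth in Hmgn1-/-. Without WT replicate 3, Phlda2 in Hmgn2-/- had an edgeR adjusted p = 0.0554 and was not called (0.00102 to 0.0554 over all settings). The groups did not overlap for 5, 4 and 4 of the 8 genes, beside 42.5%, 36.1% and 42.6% of the genes tested, where chance gives 10% for 3 libraries against 3. The median log2 FC of the 7 genes was −0.60, −0.24 and −0.18, and that of all genes tested 0.0040, 0.013 and 0.0037.

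The knockouts were then compared with each other, without WT libraries. In Hmgn2-/- against Hmgn1-/- 0 of 6 genes tested were past the threshold in edgeR, as were 0.176% of all genes, and DESeq2 gave 0, while 3 had an unadjusted p under 0.05, as did 3.20% of all genes. At an adjusted p under 0.05 with no fold limit 1 was called, Igf2, as were 0.469% of all genes. Its log2 FC was 0.79 (SE 0.131, edgeR adjusted p = 0.0238, 8.42e-05 to 0.177 over all settings), a call lost when any Hmgn1-/- library was left out. Igf2 levels were lowest in the Hmgn1-/- libraries, whereas H19 counts were lowest in the lines without HMGN2. In Hmgn1-/-Hmgn2-/- against Hmgn1-/- 0 of 6 were past the threshold in edgeR beside 0.511% of all genes, 0 by DESeq2 and 3 at an unadjusted p under 0.05, as were 9.53% of all genes. The looser rule called 1, Cdkn1c, beside 1.82% of all genes, with a log2 FC of 0.42 (SE 0.0806, edgeR adjusted p = 0.0113, 5.52e-05 to 0.0477 over all settings). Igf2 had 0.40 there (SE 0.104, edgeR adjusted p = 0.0720). With the replicate number as a block the looser rule also called Cdkn1c in Hmgn2-/- against Hmgn1-/- (0.36, edgeR adjusted p = 0.0289, 0.0289 to 1.00 over all settings). It then called Igf2 in Hmgn1-/-Hmgn2-/- against Hmgn1-/- as well (0.40, edgeR adjusted p = 0.0114, 0.0114 to 0.400 over all settings).

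The double knockout was made from the Hmgn2-/- line, and against that line 0 of 6 genes were past the threshold in edgeR, as were 0.0434% of all genes, 6 of 13816. DESeq2 gave 0 for the domain, 1 gene had an unadjusted p under 0.05 beside 4.44% of all genes, and the looser rule called 0 beside 0.261% of all genes. Over all genes, the count of 6 rose to 32 with the replicate number as a block, while that of the domain stayed at 0. Replicate 3 of Hmgn2-/- differed most from its sister libraries. Its chi-square per gene, which is near 1 for counting error alone, was 36.4 against replicate 1 and 20.6 against replicate 2. In every other pair of libraries of a genotype it was at most 12.1. The part of this spread in the number of calls was not tested. Igf2 was the gene with the unadjusted p under 0.05, with a log2 FC of −0.38 (SE 0.134, edgeR adjusted p = 0.832), and was the 1 gene of the 8 whose groups did not overlap, beside 10.1% of the genes tested. In the comparisons with Hmgn1-/- the groups did not overlap for 4 of the 8 genes, beside 8.06% of the genes tested for Hmgn2-/- and 15.1% for Hmgn1-/-Hmgn2-/-. Medians of the genes tested were 0.28, 0.20 and −0.057 in these 3 comparisons, and those of all genes 0.0045, −0.0016 and −0.0030.

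Whether the loss of HMGN1 changes a gene by the same log2 amount with and without HMGN2 was asked by a contrast in 1 fit of all 12 libraries, (Hmgn1-/-Hmgn2-/- minus Hmgn2-/-) minus (Hmgn1-/- minus WT). Hmgn1 RNA itself did not fall equally on the 2 sides of this contrast. In the fits of 6 libraries its log2 FC was −2.16 in Hmgn1-/- against WT and −4.79 in Hmgn1-/-Hmgn2-/- against Hmgn2-/-. Its departure was −2.63 (SE 0.0991, edgeR adjusted p = 4.25e-10). Of the 7 genes tested 2 were past the threshold, Igf2 and Ascl2, beside 3.48% of all genes. For Igf2 the changes of the single knockouts add up to −4.77 and the double knockout showed −2.37, a departure of 2.39 (SE 0.2003, edgeR adjusted p = 2.76e-06). For Ascl2 the sum was −3.73 and the double knockout −1.68, a departure of 2.06 (SE 0.193, edgeR adjusted p = 8.90e-06). Both genes were thus less reduced in the double knockout than the sum of the single changes. H19 had a sum of −8.57 and −5.44 in the double knockout, a departure of 3.13 (SE 0.862, edgeR adjusted p = 0.0250), and by DESeq2 it was past the threshold as well (3 of the genes). With 1 library left out in turn, the H19 departure ran from 2.35 to 3.63, with an edgeR adjusted p of up to 0.235. Cdkn1c departed by 0.67 (SE 0.136, edgeR adjusted p = 0.00405) and Phlda2 by −0.49 (SE 0.105, edgeR adjusted p = 0.00578), both within the fold limit. With an adjusted p under 0.05 and no fold limit 5 genes were called, beside 13.2% of all genes. Kcnq1ot1 (−0.69, SE 0.381) and Slc22a18 (0.045, SE 0.270) were not. The median departure of the 7 genes was 0.67, and that of all genes −0.0056. Departures were not particular to the domain. Past the threshold and above 0 in edgeR were 5 of 10 fibroblast markers (median 1.295) and 2 of 6 trophoblast markers (median 1.41). So were 2 of 17 inhibitors of cyclin-dependent kinases and G1 partners and 3 of 41 imprinted genes elsewhere. Of 11 primitive endoderm markers 6 were past it and below 0 (median −1.30).

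H19 and Igf2 share enhancers and were set against each other within each library. The share of H19 in the counts of both, a measure chosen after its values were seen, was 6.07%, 6.28% and 5.62% in WT, 2.88%, 6.36% and 3.29% in Hmgn1-/-, 0.352%, 0.926% and 0.709% in Hmgn2-/- and 0.242%, 0.678% and 1.21% in Hmgn1-/-Hmgn2-/-. The lines without HMGN2 lay below all other libraries, and Hmgn1-/- replicate 2 lay above the WT range. Over summed counts the share was 5.91% in WT (exact 95% interval 5.33% to 6.53%), 4.10% in Hmgn1-/- (2.80% to 5.76%), 0.624% in Hmgn2-/- (0.270% to 1.23%) and 0.714% in Hmgn1-/-Hmgn2-/- (0.309% to 1.40%). With 1 library left out in turn, the last value ran from 0.423% to 0.990%. Two-sided exact permutation tests, run on a measure picked for its values and so no evidence beyond them, gave p = 0.4 for Hmgn1-/- against WT, p = 0.1, the smallest possible, for each line without HMGN2 against WT and against Hmgn1-/-, and p = 1 between these lines. Of the lines without HMGN2 1 descends from the other. The share does not depend on library scaling, but its lengths differ between the genes and it is no ratio of molecules.

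**Figure D3:**
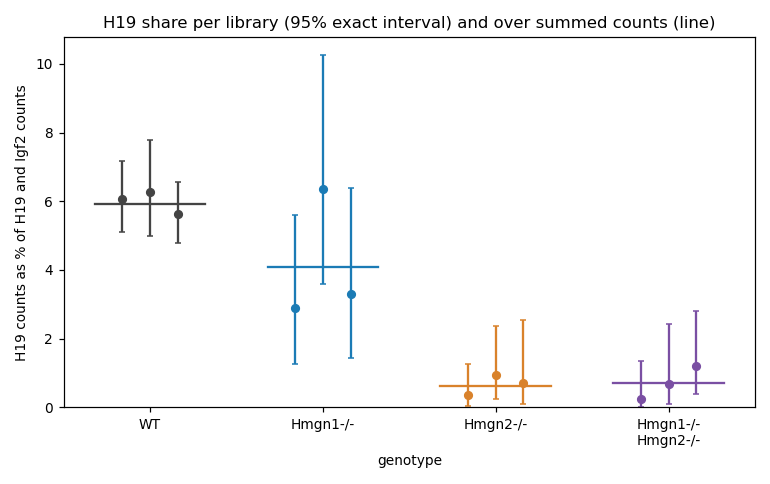
H19 counts as a percentage of the counts of H19 and Igf2 in each library (points, replicates 1 to 3 from left to right, bars 95% exact intervals for counting error) and over the summed counts of a genotype (line). Values are 5.62% to 6.28% in WT and at most 1.21% in both lines without HMGN2.

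Of 20 other genes beside and between the members on distal chromosome 7, 15 passed the filter on low counts, and Ins2, which lies between Igf2 and Th, was at 0 counts in every library. Past the threshold and lower were 4 in Hmgn1-/-, 3 in Hmgn2-/- and 4 in Hmgn1-/-Hmgn2-/- cells, and 0 were higher (0 by DESeq2; 7, 7 and 8 had an unadjusted p under 0.05 in edgeR in either direction). The median log2 FC of the list was −0.43, −0.43 and −0.18. For this list and those that follow, the values over all genes are, in the same order, 5.08%, 4.38% and 5% lower, 0.898%, 0.776% and 1.3% higher, 38.7%, 31.0% and 38.9% at an unadjusted p under 0.05, and medians of 0.0040, 0.013 and 0.0037. Over all genes, 0.176% were past the threshold in Hmgn2-/- against Hmgn1-/-, 0.511% in Hmgn1-/-Hmgn2-/- against Hmgn1-/-, 0.0434% in Hmgn1-/-Hmgn2-/- against Hmgn2-/- and 3.48% for additivity, and 3.20%, 9.53%, 4.44% and 25.9% had an unadjusted p under 0.05. Lsp1, a leukocyte actin-binding protein, had 14 to 39 counts in WT, 1 to 10 in Hmgn1-/-, 4 to 10 in Hmgn2-/- and 0 to 5 in Hmgn1-/-Hmgn2-/-, with log2 FC of −2.38, −1.93 and −3.66. The tetraspanin Tspan32 had 60 to 103 counts in WT and log2 FC of −1.70, −2.05 and −2.61. Tnnt3, a troponin of fast skeletal muscle, had 18 to 48 counts in WT, fell by 2.56 in Hmgn1-/- and by 2.07 in Hmgn1-/-Hmgn2-/- on the log2 scale, and had −1.63 in Hmgn2-/- (edgeR adjusted p = 0.0168). Th, which encodes tyrosine hydroxylase, went from 13 to 33 counts in WT to 1 to 3 in each single knockout, where all libraries were at or under the floor of 3 counts and no fold is given, and 0 to 5 in Hmgn1-/-Hmgn2-/-, with a log2 FC of −3.44 that rests on 6 counts in all. All 4 are genes with few counts even in WT. Every gene of this list and of the domain that was past the threshold lay from Lsp1 to Tspan32 in chromosomal order, a stretch defined after the values were seen. Mrpl23, a ribosomal protein gene of mitochondria beside H19 that was also singled out afterwards, was not past the threshold in this stretch (log2 FC 0.056, −0.070 and −0.18). Outside the stretch, Ctsd (log2 FC −0.43, −0.43 and −0.36) and Cd81 (−0.62, −0.64 and −0.67) were lower in each knockout. Their edgeR adjusted p were under 0.01, with folds within the limit.

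**Figure D4:**
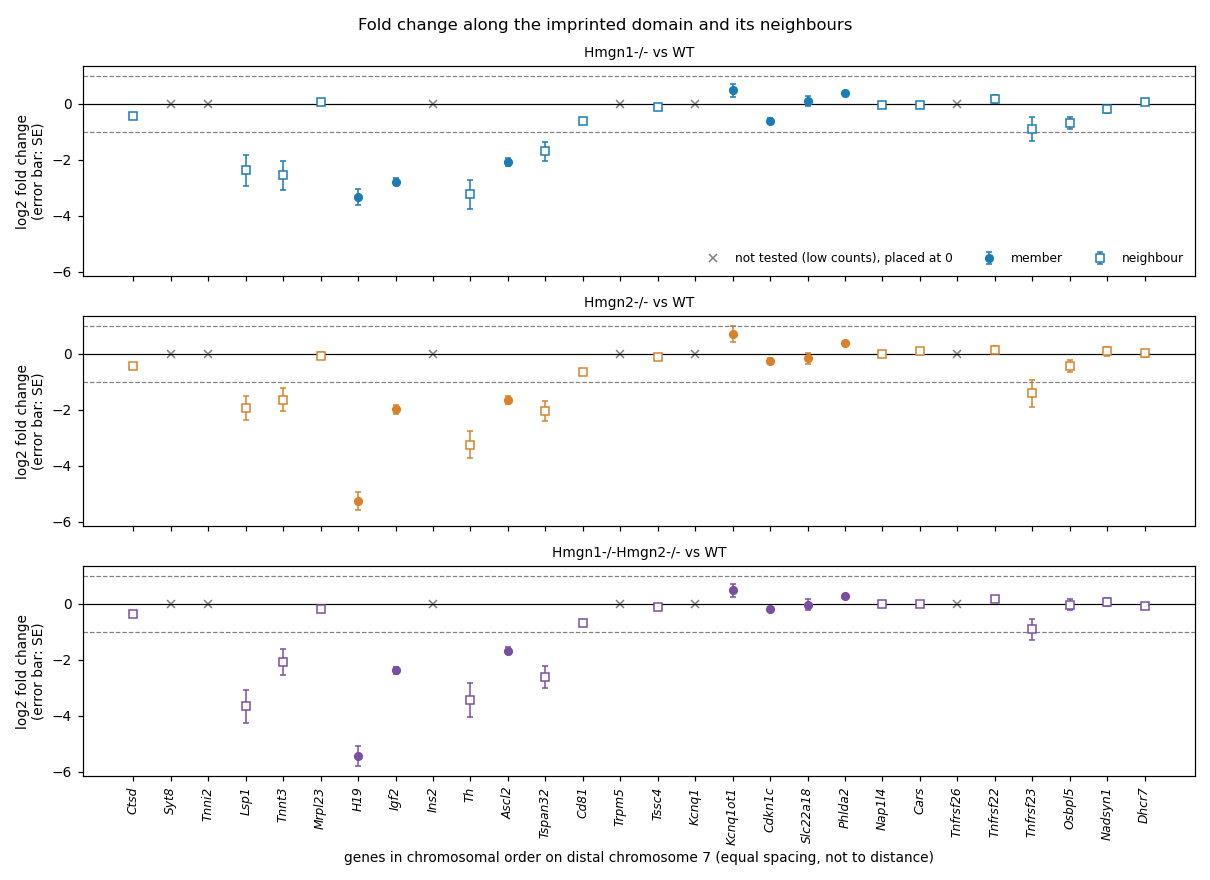
Log2 FC against WT (error bars SE) of members (filled) and other genes (open) in chromosomal order on distal chromosome 7, equally spaced, with dashed lines at 1 in size; crosses at 0 mark genes with too few counts to be tested. Values below −1 that are past the threshold lie from Lsp1 to Tspan32, and the plotted values of Th, with 1 to 3 counts per library of the single knockouts, and of Lsp1 in the double knockout, with 0 to 5, rest on few counts.

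Igf2 acts through a pathway of receptors, adaptors and binding proteins, of which 17 of 23 listed genes were tested. In each knockout 4 were lower and 0 higher in edgeR (0 higher by DESeq2; 12, 9 and 10 at an unadjusted p under 0.05 in either direction), with list medians of −0.53, −0.52 and −0.46. Igfbp3 and Igfbp5, which bind IGFs outside the cell, fell in all 3 knockouts. Igfbp3 had log2 FC of −1.58, −1.35 and −1.50 and Igfbp5 of −1.92, −1.86 and −1.82 in Hmgn1-/-, Hmgn2-/- and Hmgn1-/-Hmgn2-/-. The binding protein Igfbp7 had −1.33 in Hmgn1-/- and −1.37 in Hmgn1-/-Hmgn2-/-, and −1.29 with an edgeR adjusted p = 0.0133 in Hmgn2-/-. Irs2, an adaptor of insulin and IGF receptors, fell in both single knockouts (−1.16 and −1.10) and had −0.94 in the double knockout. Igf2bp2, an RNA-binding protein, fell in Hmgn2-/- (−1.19) and Hmgn1-/-Hmgn2-/- (−1.20) and had −0.95 in Hmgn1-/-. Between the knockouts 0 genes of the list were past the threshold in edgeR or DESeq2, with 4, 2 and 0 at an unadjusted p under 0.05. In the additivity contrast Igfbp3 (1.44) and Irs2 (1.33) were past the threshold.

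Beside Cdkn1c, 17 other inhibitors of cyclin-dependent kinases and their partners in G1 were all tested. In each knockout 2 were lower, and 0 were higher by edgeR or DESeq2 (8, 7 and 9 at an unadjusted p under 0.05 in either direction), and the list medians were 0.00047, 0.016 and −0.012. Cdkn2b, an inhibitor of the kinases Cdk4 and Cdk6, had log2 FC of −1.69, −1.32 and −1.40. The cyclin Ccnd2 had −1.42, −1.71 and −1.74. Whether 2 of 17 differs from the share of all genes was not tested. Of 22 factors known to bind, methylate or silence at imprinting control regions, among them Ctcf, Zfp57, Trim28 and Dnmt1, 21, 22 and 22 were tested and 0 were past the threshold by edgeR or DESeq2, while 11, 8 and 13 had an unadjusted p under 0.05. Their median log2 FC was 0.092, 0.026 and 0.049.

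Imprinted genes of other chromosomal regions were examined for the same falls. Of 48 such genes 40, 41 and 41 were tested, and 4 were lower in Hmgn1-/-, 5 in Hmgn2-/- and 5 in Hmgn1-/-Hmgn2-/- cells with 0 higher in edgeR (4, 6 and 5 past the threshold by DESeq2; 23, 20 and 25 at an unadjusted p under 0.05 in either direction). The medians were −0.029, −0.053 and −0.052. Dio3, a thyroid hormone deiodinase, fell in all 3 (−2.67, −3.47 and −2.94). Peg3, a zinc finger gene, fell in both single knockouts (−1.03 and −1.05) and had −0.87 in the double knockout. Plagl1, another zinc finger gene, fell in both lines without HMGN2 (−1.43 and −1.01) and had −0.85 in Hmgn1-/-. Magel2 fell in Hmgn1-/- (−1.48) and had −0.66 in Hmgn2-/- and −0.94 in Hmgn1-/-Hmgn2-/-. Ddc, an enzyme gene beside Grb10, fell in Hmgn1-/-Hmgn2-/- (−1.03) and had −0.72 and −0.96 in the single knockouts. Dio3 and these 4 genes all had a negative log2 FC against WT in every line, and none was past the threshold between knockouts. In each comparison of Hmgn1-/- with a line without HMGN2, 36 of the 40 genes tested were not past the threshold in edgeR. The others are given next.

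Grb10, an adaptor that dampens insulin and IGF receptor signalling, was at 319 ± 16.1 TMM-scaled CPM in WT (SD, n = 3), 403 ± 7.91 in Hmgn1-/-, 34.6 ± 4.68 in Hmgn2-/- and 41.4 ± 2.88 in Hmgn1-/-Hmgn2-/-. Its log2 FC against WT was −3.20 in Hmgn2-/- and −2.95 in Hmgn1-/-Hmgn2-/-. Peg13, a noncoding RNA, had 39 to 82 counts in WT and 79 to 108 in Hmgn1-/-, and it had 0 to 1 in Hmgn2-/- and 0 to 3 in Hmgn1-/-Hmgn2-/-, at or under the same floor, so that no fold is given. Nnat, a membrane proteolipid gene, went the other way, with 11.4 ± 1.29 TMM-scaled CPM in WT, 1.43 ± 0.593 in Hmgn1-/-, 14.3 ± 1.42 in Hmgn2-/- and 11.8 ± 1.06 in Hmgn1-/-Hmgn2-/-. In both comparisons with Hmgn1-/- that hold no WT library, 4 genes of the list were past the threshold: Grb10 (−3.54 in Hmgn2-/-, −3.28 in Hmgn1-/-Hmgn2-/-) and Peg13 were lower, Nnat (3.34 and 3.06) and Peg10 (1.10 and 1.33, named after its values were seen) were higher. Between Hmgn1-/-Hmgn2-/- and Hmgn2-/- 0 were past the threshold by edgeR or DESeq2, and 3 had an unadjusted p under 0.05. For these differences between Hmgn1-/- and the lines without HMGN2, which part belongs to the genotype and which to the clone cannot be told apart.

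Markers of the labelled cell type and of others that a culture could hold were summed in each library. The 8 pluripotency markers Pou5f1, Sox2, Nanog, Klf4, Esrrb, Zfp42, Tfcp2l1 and Dppa5a came to 5279, 5324 and 5448 TMM-scaled CPM in WT, 5275, 5364 and 5718 in Hmgn1-/-, 4811, 5234 and 5783 in Hmgn2-/- and 4751, 5268 and 5373 in Hmgn1-/-Hmgn2-/-. Pou5f1 was the most abundant in every library, no marker was at 0, and 0 of 8 were past the threshold against WT by edgeR or DESeq2 (4, 3 and 4 at an unadjusted p under 0.05). All markers of the labelled cell type were thus present in all 4 genotypes, but some differed in level. Klf4 had means of 125 in WT and 239.5, 202 and 211 in Hmgn1-/-, Hmgn2-/- and Hmgn1-/-Hmgn2-/-, Esrrb 399 and 555, 498 and 486, and Nanog 256 and 206, 181 and 188.

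Some fibroblast markers fell and others did not. Of 14 listed, 10 were tested and 6 were lower in each knockout with 0 higher (6 past the threshold by DESeq2 in each; 7, 6 and 7 at an unadjusted p under 0.05), and the list medians were −1.63, −1.51 and −1.36. Acta2, a smooth muscle actin, had log2 FC of −3.14, −2.91 and −4.96. The collagen gene Col1a1 had −1.79, −1.51 and −1.81, and Col1a2 had −2.86, −2.75 and −2.41. Tagln, Col5a1 and Thy1 were the others. The remaining markers tested went in either direction without passing the threshold: Fn1 had means of 378 TMM-scaled CPM in WT and 570.4, 457 and 440.2 in the knockouts, Fbn1 4.13 and 4.57, 5.10 and 5.39, Loxl1 4.47 and 4.43, 4.91 and 5.04, and Pdgfrb 1.51 and 1.02, 1.07 and 1.03. The summed level was carried by Fn1 and came to 501, 499 and 482 TMM-scaled CPM in WT, 624, 698 and 495 in Hmgn1-/-, 594, 535 and 365 in Hmgn2-/- and 526, 476 and 425 in Hmgn1-/-Hmgn2-/-. Without Fn1 it was 114, 108 and 128 in WT, 32.7, 35.1 and 37.6 in Hmgn1-/-, 40.1, 40.1 and 42.7 in Hmgn2-/- and 31.7, 39.1 and 35.9 in Hmgn1-/-Hmgn2-/-. The full sums of WT lay within the range of the knockouts, and only the sums without Fn1 were higher in every WT library than in any knockout. Lum was at 0 in all 12 libraries, and with it 2 of the 14 markers never exceeded 3 counts. The part of such cells in the falls of the imprinted genes was not tested.

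Trophoblast markers fell in part, and mesoderm markers went in both directions. Of 7 trophoblast markers 6 were tested and 3 were lower in each knockout with 0 higher (3 past the threshold by DESeq2 in each; 4, 4 and 5 at an unadjusted p under 0.05), with list medians of −1.58, −1.20 and −1.40. Krt7, a keratin of simple epithelia, had log2 FC of −3.41, −2.53 and −3.62. The factor Gata3 had −3.19, −3.44 and −3.03, and Hand1 had −2.51, −1.93 and −2.11. The other markers tested were not past the threshold: Tfap2c had means of 32.0 TMM-scaled CPM in WT and 32.6, 34.6 and 27.3 in the knockouts, Cdx2 1.07 and 0.741, 1.05 and 1.04, and Eomes 9.73 and 6.18, 7.04 and 6.07. Tfap2c was the most abundant, no marker was at 0 in all libraries, and the sums were 61.0, 67.4 and 77.8 TMM-scaled CPM in WT, 39.9, 43.1 and 44.3 in Hmgn1-/-, 49.3, 46.9 and 46.0 in Hmgn2-/- and 34.6, 37.4 and 40.4 in Hmgn1-/-Hmgn2-/-. Of 7 mesoderm markers, 2, 1 and 2 were lower with 0 higher (2, 2 and 2 past the threshold by DESeq2; 5, 5 and 6 at an unadjusted p under 0.05), and the medians were 0.14, −0.38 and −0.22. The factor T had log2 FC of −3.71, −2.89 and −3.37. Kdr, a receptor for VEGF, had −1.74 and −1.66 in Hmgn1-/- and Hmgn1-/-Hmgn2-/-, and −2.07 in Hmgn2-/- (edgeR adjusted p = 0.0144). Tbx6, Mesp1 and Mixl1 had higher means in every knockout without passing the threshold. Tbx6 had 0.631 TMM-scaled CPM in WT and 1.58, 1.45 and 1.38 in the knockouts, Mesp1 0.298 and 0.686, 0.888 and 0.704, and Mixl1 0.797 and 1.40, 1.34 and 1.49. Eomes, which is on both lists, was the most abundant mesoderm marker, no marker of the list was at 0 in all libraries, and the sums were 14.5, 17.7 and 19.2 TMM-scaled CPM in WT, 12.6, 10.6 and 10.0 in Hmgn1-/-, 13.2, 11.1 and 11.3 in Hmgn2-/- and 10.6, 10.7 and 11.2 in Hmgn1-/-Hmgn2-/-. Their part in the result was not tested.

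Primitive endoderm markers moved the other way. All 11 were tested, and 8, 9 and 11 were higher with 0 lower in Hmgn1-/-, Hmgn2-/- and Hmgn1-/-Hmgn2-/- cells (8, 9 and 11 past the threshold by DESeq2; 11 in each at an unadjusted p under 0.05), with list medians of 2.44, 2.81 and 3.73. The endocytic receptor gene Cubn had log2 FC of 3.72, 3.88 and 5.38, and Gata4, a factor of this lineage, had 2.55, 2.83 and 3.73. The sums were 147, 186 and 190.2 TMM-scaled CPM in WT, 488, 402 and 411 in Hmgn1-/-, 566, 509 and 366 in Hmgn2-/- and 1065, 1049 and 975 in Hmgn1-/-Hmgn2-/-. They were highest in the double knockout, in which 8 markers were higher than in Hmgn1-/-, beside 0.511% of all genes past the threshold in either direction, and 1 was higher than in Hmgn2-/- (7 by DESeq2), beside 0.0434%. Lama1 was the most abundant in most libraries and Col4a1 in the double knockout and WT replicate 3, and no marker was at 0. The part of these cells in the levels of the imprinted genes was not tested.

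**Figure D5:**
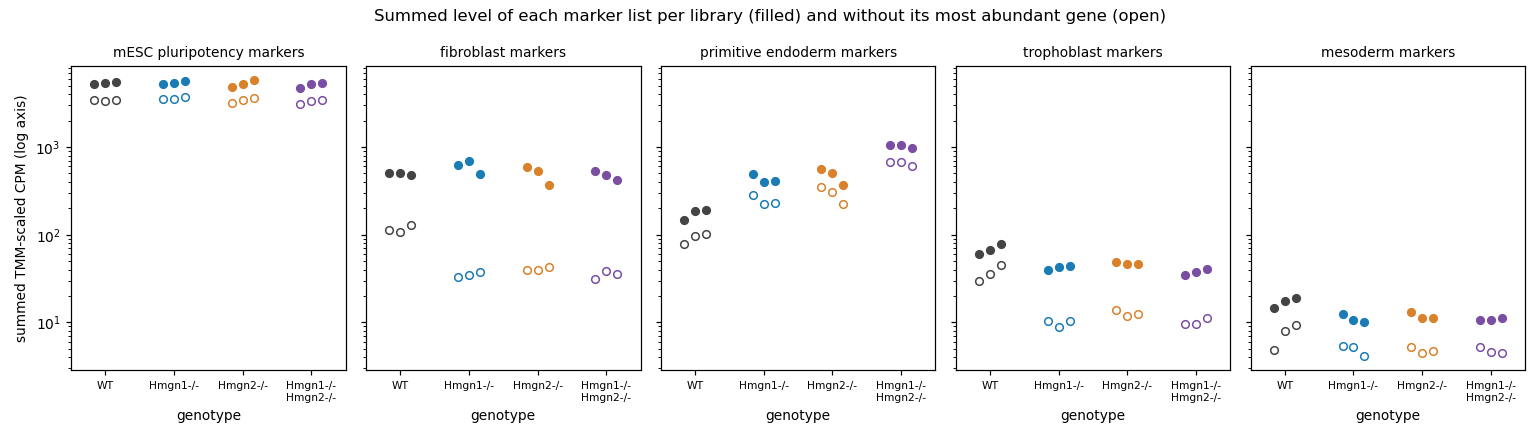
Summed TMM-scaled CPM of each marker list in each library (filled, log axis) and without the most abundant gene of that library (open), by genotype. Fibroblast markers without Fn1 lie at 108 to 128 in WT and at 31.7 to 42.7 in the knockouts, while pluripotency markers lie between 4751 and 5783 throughout.

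Genes with a pattern like that of a member were named by Pearson's r of log2(TMM-scaled CPM + 0.1) over the 12 libraries, among the 11555 genes that averaged 50 counts or more. The libraries fall into a WT and a knockout cluster and a high r can rest on that step alone, so r is a description. Closest to Igf2 were Hand1 (0.983), Cald1 (0.982), Osbpl10 (0.980), Ascl2 (0.977) and Krt7 (0.976). Closest to Ascl2 were Csf1 (0.981), Cald1 (0.981), Igf2 (0.977), Slc39a8 (0.976) and Tagln2 (0.972). The members Igf2 and Ascl2 were thus each among the 5 genes nearest to the other, although 300.01 kb lie between them. Closest to Phlda2 were Pcbp4 (0.982), Lsm1 (0.962), Bok (0.953), Zfp869 (0.952) and Pelo (0.951), and its r with Ascl2 was −0.918. Closest to Cdkn1c were Pik3r3 (0.913), Vim (0.886), Klf6 (0.876), Lrrc28 (0.872) and Dock11 (0.870). For Kcnq1ot1 they were Ankle1 (0.949), Slmo1 (0.940), Rnf34 (0.936), Tgif2 (0.934) and Rnf170 (0.931), and for Slc22a18 Spats1 (0.859), Abi3 (0.850), Npm3-ps1 (0.848), Capn10 (0.830) and Mus81 (0.816). H19 and Kcnq1 had too few counts for this measure.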

How the data were processed

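Poly-A RNA of 12 libraries, 3 per genotype, was analysed from the gene counts deposited by the authors. Per the submitters' notes, reads had been aligned to mm10 with STAR, and the counting program, its annotation and its use of strand are not given in the sources used here. Library totals were 17337908 to 31448468 and TMM factors 0.970 to 1.02. At such depth a gene with 8 counts over 3 libraries has a wide counting error, and intervals on count ratios and shares cover that error only.

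Each pair of genotypes was compared with edgeR 4.0.16 in R 4.3.3 (filterByExpr with a minimum count of 10, TMM, quasi-likelihood test, Benjamini-Hochberg adjustment over all genes tested) on its 6 libraries, and additivity on all 12. The SE is the log2 FC divided by the square root of the quasi-likelihood F. The threshold was an adjusted p under 0.01 and a log2 FC of at least 1 in size. These p-values measure the spread between these samples, each genotype being 1 line. Alternatives were DESeq2 1.42.0, RLE scaling, no filter on low counts, all 12 libraries in 1 fit, the replicate number as a block, an adjusted p under 0.05 with no fold limit, each library left out, and CPM by library total. The fits were tested on simulated data, with the same spread beyond counting error for every gene and known changes only in genes above a limit on mean counts. Such data do not show how the fits perform at counts as low as those of H19 in the lines without HMGN2. Ratios, permutation tests and figures were made in Python 3.11.15 with scipy 1.17.1 and matplotlib 3.10.9.

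The labels give replicate numbers and no pairing. After the group means were removed, libraries with the same number correlated above 0.1 in every pair for Hmgn1-/- against WT (0.133 to 0.314), Hmgn1-/-Hmgn2-/- against WT (0.187 to 0.250), Hmgn2-/- against Hmgn1-/- (0.202 to 0.402) and Hmgn1-/-Hmgn2-/- against Hmgn2-/- (0.165 to 0.590), a finding from the data alone. The lowest value was 0.0811 for Hmgn2-/- against WT and 0.0636 for Hmgn1-/-Hmgn2-/- against Hmgn1-/-, and libraries with different numbers lay between −0.491 and 0.0886.

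The members and the 10 other gene lists were chosen with earlier results of these data known. Of each list, genes past the threshold against WT were eligible to be named, up to 8 by size of change. Exceptions, chosen after their values were seen, are Igf2as, Mir675, Mir483, Peg10, Mrpl23, Ctsd, Cd81 and the share of H19. Others are the listed markers that did not pass but are named to show where they went (Fn1, Fbn1, Loxl1, Pdgfrb, Tbx6, Mesp1, Mixl1, Eomes, Tfap2c, Cdx2, Klf4, Esrrb and Nanog). Genes at 0 counts, the most abundant markers and examples of what a list holds are also named. Igf2r stands on the IGF and imprinted lists and Eomes on the trophoblast and mesoderm lists. Coordinates and exon lengths came from GENCODE vM21 (GRCm38), and sequences from RefSeq tables of GRCm38.p6.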

Additional observations from a re-analysis of the deposited data

Results flagged for a closer look

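The departures from additivity on the log2 scale were singled out as estimates of how the effect of losing HMGN1 differs between cells with and without HMGN2. They were 3.13 for H19, 2.39 for Igf2, 2.06 for Ascl2, 0.67 for Cdkn1c and −0.49 for Phlda2. In each case the double knockout lay closer to WT than the sum of the single changes. Only Igf2 and Ascl2 were past the threshold in edgeR. H19 was past it by DESeq2 but not by edgeR, and Cdkn1c and Phlda2 were within the fold limit. Markers of other cell types departed as well, 5 of 10 for fibroblasts and 2 of 6 for trophoblast above 0. For primitive endoderm 6 of 11 did so below 0. The H19 value rests on counts of 1 to 5 per library in the lines without HMGN2 and ran from 2.35 to 3.63 with 1 library left out in turn. Each knockout is 1 clone and the double knockout descends from the Hmgn2-/- clone, so that an effect of the genes and a state inherited from that clone cannot be told apart. Hmgn1 RNA itself departed by −2.63, and the part of this in the other departures was not tested. Other explanations were not tested either.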

How the results depend on the processing

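H19, Igf2 and Ascl2 were lower and past the threshold against WT under every alternative, and Igf2 and Ascl2 stayed past it for additivity with the alternatives tried. The number of genes of the domain past the threshold moved by over 1.5 times only with an adjusted p under 0.05 and no fold limit, by construction of that rule: to 5 for Hmgn1-/- against WT, to 1 for Hmgn2-/- against Hmgn1-/-, to 1 for Hmgn1-/-Hmgn2-/- against Hmgn1-/- and to 5 for additivity. At that rule Igf2 in Hmgn2-/- against Hmgn1-/- was lost when any Hmgn1-/- library was left out (adjusted p up to 0.177) and Phlda2 in Hmgn2-/- against WT without WT replicate 3 (0.0554). The number was 4 for Hmgn2-/- and 4 for Hmgn1-/-Hmgn2-/- against WT. H19 passed for additivity with DESeq2 (3.13, adjusted p = 0.00426) but not with edgeR, where its departure ran from 2.35 to 3.63 and its adjusted p reached 0.235 with 1 library left out in turn.

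Signs turned only for small differences when single libraries were left out, and the cause was not tested. For Slc22a18 the log2 FC ran from −0.047 to 0.30 in Hmgn1-/- against WT, from −0.29 to 0.049 in Hmgn2-/- against WT, from −0.19 to 0.17 in Hmgn1-/-Hmgn2-/- against WT, from −0.29 to 0.0085 in Hmgn1-/-Hmgn2-/- against Hmgn1-/-, from −0.029 to 0.27 in Hmgn1-/-Hmgn2-/- against Hmgn2-/- and from −0.17 to 0.18 for additivity. Phlda2 ran from −0.10 to 0.043 in Hmgn2-/- against Hmgn1-/-, and Kcnq1ot1 from −0.22 to 0.19 in Hmgn1-/-Hmgn2-/- against Hmgn1-/-. Without a sign change, Kcnq1ot1 against WT lay between 0.31 and 0.85, between 0.50 and 1.06 and between 0.28 and 0.85 in Hmgn1-/-, Hmgn2-/- and Hmgn1-/-Hmgn2-/-. Cdkn1c in Hmgn1-/-Hmgn2-/- against WT ran from −0.28 to −0.11, with an adjusted p from 0.00310 to 0.399 over all settings. H19 in Hmgn1-/-Hmgn2-/- against WT moved from −5.44 to −6.22 without replicate 3 and to −4.94 without replicate 1 of the double knockout.

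With the replicate block Igf2 had −2.76 in Hmgn1-/- against WT, and the block changed no call at the threshold among the genes of the domain. At an adjusted p under 0.05 with no fold limit it added Kcnq1ot1 in each comparison with WT (edgeR adjusted p = 0.0174, 0.0305 and 0.0274), Cdkn1c in Hmgn2-/- against Hmgn1-/- (0.0289) and Igf2 in Hmgn1-/-Hmgn2-/- against Hmgn1-/- (0.0114), and changed no other call. Over all genes, those past the threshold between Hmgn1-/-Hmgn2-/- and Hmgn2-/- went from 6 to 32 with the replicate block, 29 with DESeq2, 21 with no filter, 18 with all 12 libraries in 1 fit and 1 to 12 with a library left out, and the cause was not tested. With an adjusted p under 0.05 and no fold limit the counts went from 832 to 3959, 724 to 2649, 890 to 4094, 24 to 64, 70 to 249, 6 to 36 and, for additivity, 499 to 1892. CPM by library total put Ascl2 in Hmgn2-/- at 4.04 and Phlda2 in WT at 103, beyond 1 SD of their TMM-scaled means, and kept 30 of 32 levels within it. Leaving a library out put the H19 share, a measure added after the data were seen, at 5.82% to 6.15% in WT, 3.07% to 4.80% in Hmgn1-/-, 0.471% to 0.840% in Hmgn2-/- and 0.423% to 0.990% in Hmgn1-/-Hmgn2-/-. Depth limits H19 in the lines without HMGN2 and Kcnq1 throughout.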
